A study of Sus scrofa with 6 samples.

Results

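The miR-148 and miR-152 family was followed in longissimus dorsi muscle of pig fetuses by small RNA sequencing. Its members were taken by name as every row of the deposited miRNA table called ssc-miR-148a, ssc-miR-148b or ssc-miR-152, on either arm of the hairpin, which gave 6 of the 1143 mature miRNAs used here. The libraries came from fetuses of 2 pig breeds, 3 of the lean Large White (LW) and 3 of the Meishan (MS), a fatter breed native to China. The study describes the fetuses as females at 35 dpc (days post-conception), each from a different sow mated within its breed. The sample labels instead describe females of 2 years, and the grouping by breed does not depend on this conflict. Whole tissue was sequenced, so that more cells containing a miRNA and more copies per cell cannot be told apart.

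A miRNA hairpin is cut into a duplex with a 5p and a 3p arm. One arm, the guide, is usually kept in the silencing complex, while the other, the passenger, is mostly degraded, and bases 2 to 8 of the guide (the seed) do most of the pairing with target mRNAs. In the miR-148 and miR-152 family the guides are the 3p arms, and in human and mouse cells they are known to repress DNMT1, the maintenance DNA methyltransferase. MiR-148a is also known, in mouse myoblasts, to promote differentiation by repressing ROCK1, a kinase of the actin cytoskeleton.

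The guides are shown first, because their shared seed is what makes them a family. The deposited sequences are written 5′ to 3′ with T for U and the seed in capitals.
miR-148a-3p: tCAGTGCActacagaactttgt
miR-148b-3p: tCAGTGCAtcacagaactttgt
miR-152-3p: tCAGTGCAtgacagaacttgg
All 3 guides had the seed CAGTGCA, and no other row of the table had it. Counted from 1 at the 5′ end, miR-148b-3p differed from miR-148a-3p by C9T and T10C. MiR-152-3p differed from miR-148a-3p by C9T, T10G and T20G over the 21 bases compared. No pair of guides was separated by fewer than 2 bases, so 1 misread base does not turn one listed guide into another.

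The passengers are shown because those of miR-148b and miR-152 did not follow their guides in the breed comparison.
miR-148a-5p: aAAGTTCTgagacactccgact
miR-148b-5p: gAAGTTCTgttatacactcaggct
miR-152-5p: aGGTTCTGtgatacactccgact
The passengers of miR-148a and miR-148b shared the bases AAGTTCT at positions 2 to 8, and miR-152-5p had GGTTCTG there. In the table used here only miR-148a-5p and miR-148b-5p had the first of these seeds and only miR-152-5p the second.

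The hairpins place both arms on 1 transcript each, which is the basis of the comparison of arms further on. They are given as listed with the study, with both deposited arms in capitals.
mir-148a: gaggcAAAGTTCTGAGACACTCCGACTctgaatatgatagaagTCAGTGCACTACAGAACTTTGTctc
mir-148b: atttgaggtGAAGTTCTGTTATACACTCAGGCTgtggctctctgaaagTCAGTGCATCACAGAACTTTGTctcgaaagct
mir-152: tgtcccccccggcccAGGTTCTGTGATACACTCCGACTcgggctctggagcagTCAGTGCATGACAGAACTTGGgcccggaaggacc
Between the arms of each hairpin lay 15 or 16 bases. The hairpin list placed mir-148a on the plus strand at chr18:51216008-51216118, mir-148b on the plus strand at chr5:20388169-20388277 and mir-152 on the minus strand at chr12:24289531-24289641 of Sscrofa10. These intervals are longer than the hairpins. In the RefSeq annotation of Sscrofa11.1, MIR148B lies within the span of COPZ1 and MIR152 within that of COPZ2, which encode related subunits of the COPI vesicle coat, whereas no annotated gene spans MIR148A. The 3 genes are therefore on different chromosomes, and their host genes were not measured here.

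The deposited unit is the normalized read: for each miRNA its commonest sequence was counted, and the authors divided by the library's mappable reads. From 1038981 to 3419271 reads per library were recovered from these values, with MS replicate 3 the shallowest, and the normalized reads listed per library summed to between 2541224 and 2914028 in LW and between 1757879 and 2362082 in MS. Breeds were compared with limma, on the log2 scale after adding 1 normalized read, over 548 miRNAs whose mean reached 10 normalized reads in LW or in MS. A miRNA was called at an adjusted p under 0.05. Log2 fold changes are MS minus LW, and this scale understates changes of scarce miRNAs. All 6 members passed the filter in both breeds.

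Of the 6 members, 4 were higher in MS, 1 was lower and 1 was not called. Of all miRNAs tested, 34.1% were called higher and 28.1% lower, 62.2% in all, so that a call alone does not set the family apart. Over all miRNAs tested the log2 fold changes had a median of 0.11. The 3 guides went in different directions, since miR-148a-3p rose, miR-152-3p fell and miR-148b-3p was not called, while all 3 passengers rose.

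The most abundant member, ssc-miR-148a-3p, had 22582, 17507 and 19031 normalized reads in LW replicates 1, 2 and 3 and 76392, 62046 and 48525 in MS replicates 1, 2 and 3. Every MS library was far above every LW library. Its LW mean was 19707 ± 2604 and its MS mean 62321 ± 13935 (SD, n = 3 for both), 3.16-fold higher in MS. On the log2 scale limma gave 1.64 (SE 0.24, adjusted p = 9.5e-05). By abundance it ranked 28 to 38 among the miRNAs of the LW libraries and 6 to 8 in MS.

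The other way round, the guide ssc-miR-152-3p had 20275, 14147 and 23493 normalized reads in LW and 4544, 4494 and 5217 in MS replicates 1, 2 and 3. The breeds did not overlap, and the MS animals lay close together. In LW the mean was 19305 ± 4748 and in MS 4752 ± 404 (SD, n = 3 for both), 4.06-fold lower. The limma estimate was -1.99 on the log2 scale (SE 0.25, adjusted p = 3.7e-05). Its rank went from 32 to 43 in LW to 61 to 77 in MS.

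The guide ssc-miR-148b-3p had 4902, 5311 and 5875 normalized reads in LW and 5498, 5484 and 6115 in MS replicates 1, 2 and 3. The ranges overlapped, and LW replicate 3 was above MS replicates 1 and 2. The means were 5363 ± 489 and 5699 ± 360 (SD, n = 3 each), and the limma estimate of 0.09 (SE 0.23, adjusted p = 0.75) had a 95% interval from -0.41 to 0.59 on the log2 scale. Of the 3 guides it varied least between animals in each breed, with a coefficient of variation of 9.12% in LW and 6.32% in MS. The medians over all miRNAs tested were 24.1% and 30.3%, but these take in much scarcer miRNAs, whose counting error is larger.

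**Figure D1:**
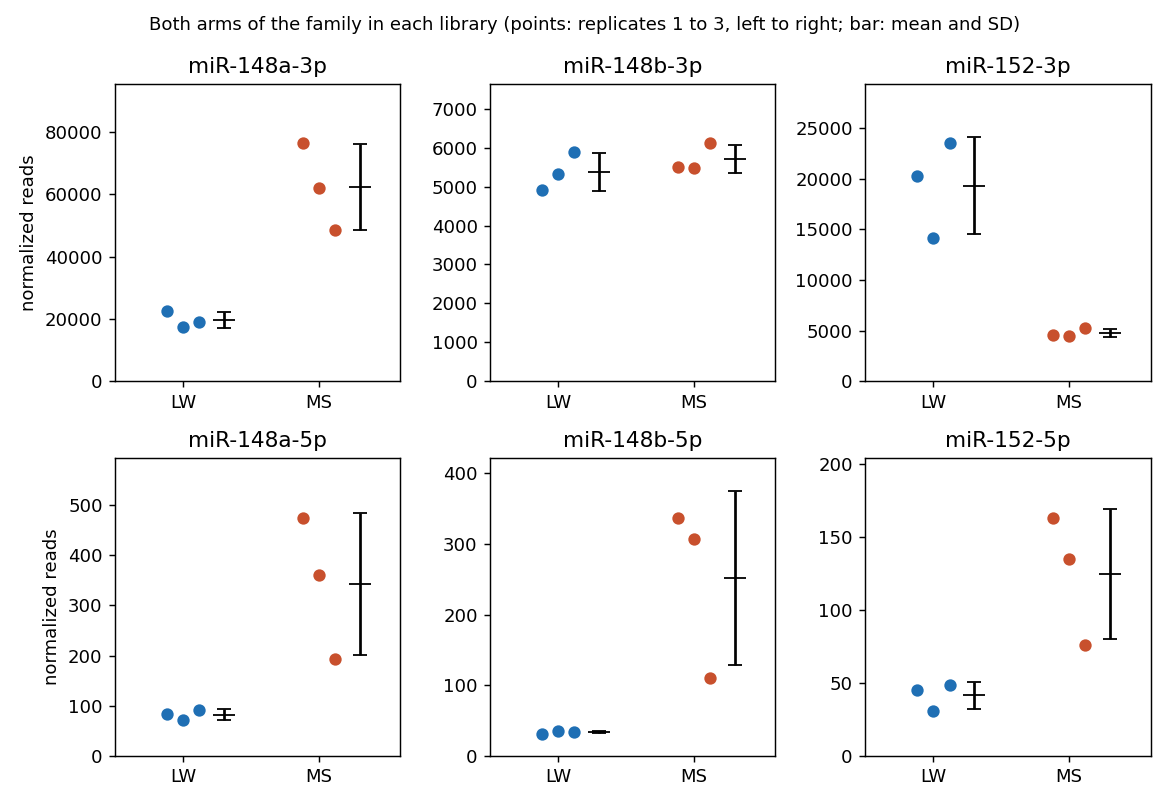
Normalized reads (y axes, linear, from 0) of the 6 arms of the family in the LW (blue) and MS (red) libraries, with replicates 1 to 3 from left to right and the mean and SD as a bar beside them. MiR-148b-3p, at 4902 to 6115 normalized reads, is the one member whose breeds overlap, and MS replicate 3 is the lowest MS library of each 5p arm.

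**Figure D2:**
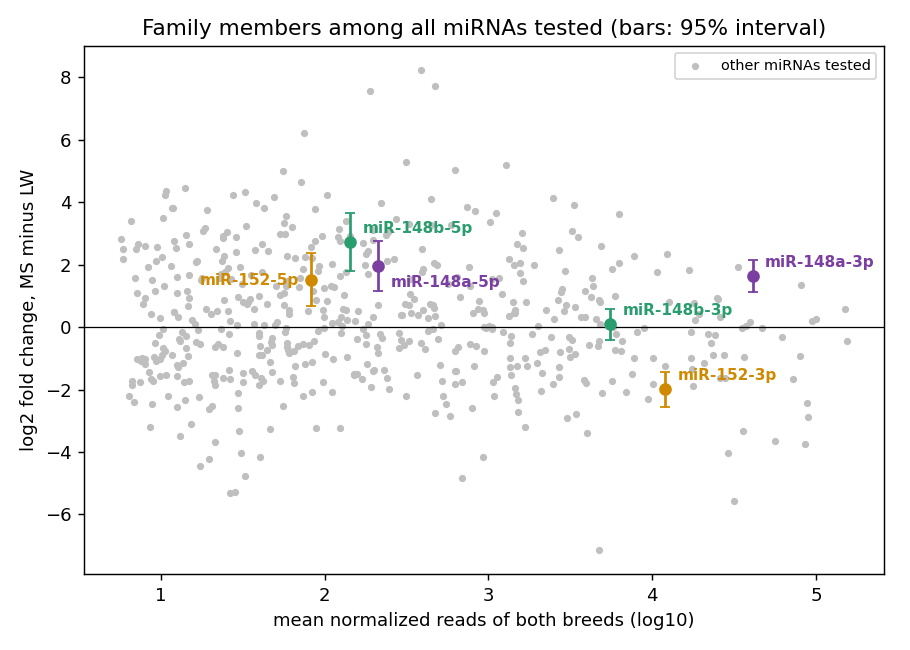
Log2 fold change (y axis, MS minus LW) against the mean normalized reads of both breeds (x axis, log10) for the 548 miRNAs tested, in grey, with the family members in colour and their 95% intervals as bars. The 3p arms spread from -1.99 for miR-152-3p to 1.64 for miR-148a-3p, and the 5p arms lie between 1.52 and 2.72.

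Because the guides share a seed, their sum was followed as well. The 3 guides together had 47758, 36966 and 48399 normalized reads in LW and 86434, 72023 and 59857 in MS replicates 1, 2 and 3, so that every MS library was above every LW library. Their share of the listed normalized reads was 1.62% ± 0.28 in the LW libraries and 3.56% ± 0.14 in those of MS (SD, n = 3 for both). The listed normalized reads themselves summed to less in MS, so the share rose more than the sum of the guides did. Both the sums and the shares are of uncorrected values. After the correction for GC content given further on, miR-148a-3p was at 0.70, miR-148b-3p at -0.86 and miR-152-3p at -1.81 on the log2 scale. Whether the sum is still higher in MS after that correction was not tested. The make-up of the sum also differed between the breeds. MiR-148a-3p supplied 44.7% ± 4.62 of it in LW and 85.2% ± 3.75 in MS. MiR-152-3p supplied 43.1% ± 5.16 and 6.74% ± 1.78, and miR-148b-3p 12.3% ± 2.06 and 8.07% ± 1.97 (SD, n = 3 each). In LW, then, miR-148a-3p and miR-152-3p were at about the same level, and in MS miR-148a-3p outnumbered the others.

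**Figure D3:**
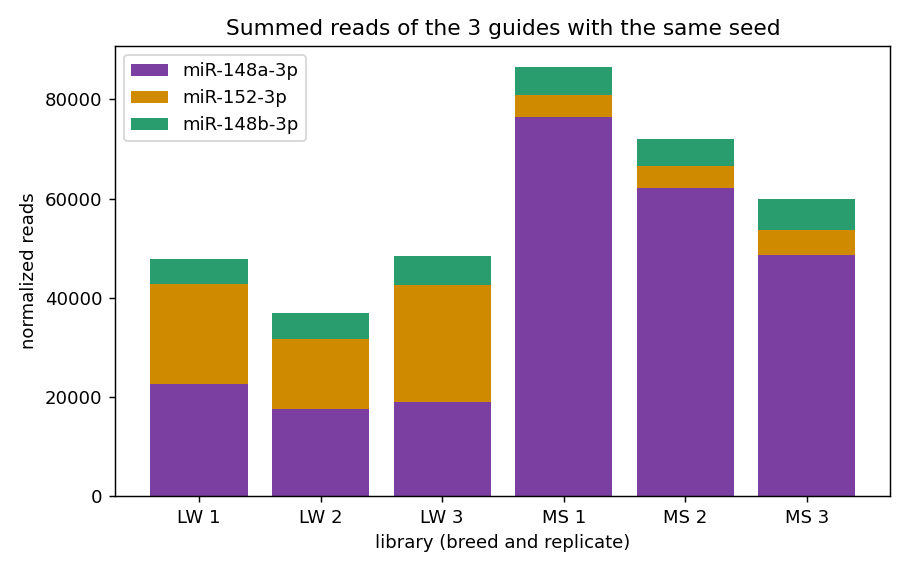
Normalized reads (y axis) of the 3 guides with the seed CAGTGCA, stacked for each LW and MS library (x axis). The orange part, miR-152-3p, is between 14147 and 23493 in LW and between 4494 and 5217 in MS, while the purple part, miR-148a-3p, is at least 48525 in MS.

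Ratios of 2 guides within a library do not depend on how the libraries were scaled, but they can depend on GC content where the guides differ in it. There were 1.11, 1.24 and 0.81 reads of miR-148a-3p for each read of miR-152-3p in LW and 16.8, 13.8 and 9.30 in MS replicates 1, 2 and 3. The ratio was 12.5-fold higher in MS, a difference of 3.64 on the log2 scale (LW 0.05 ± 0.32, MS 3.69 ± 0.43, SD, n = 3 each, exact permutation test). For miR-148a-3p over miR-148b-3p the ratio was 3.24 to 4.61 in LW and 7.94 to 13.9 in MS, a log2 difference of 1.55. MiR-148b-3p over miR-152-3p went from 0.24 to 0.38 in LW to 1.17 to 1.22 in MS, a log2 difference of 2.08. After correction for GC content in each library the differences from miR-152-3p were smaller, 2.51 for miR-148a-3p and 0.95 for miR-148b-3p. All 3 pairs separated the breeds without overlap, but 67.7% of single miRNAs tested did so too, and the share over all pairs was not counted. The ratios are also not independent, since any 2 of the 3 fix the other. Each had p = 0.10 in the two-sided exact permutation test (adjusted p = 0.10 over the 3 pairs), and no smaller p can be reached with 3 animals a breed.

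The passengers were scarce beside the guides. Of these, ssc-miR-148a-5p had 83.9, 70.8 and 91.3 normalized reads in LW and 476, 361 and 193 in MS replicates 1, 2 and 3, and every MS library was above every LW library. By limma it rose by 1.96 on the log2 scale (SE 0.37, adjusted p = 0.00064), beside 1.64 for its guide. In MS replicate 3, 114 reads lay behind the value.

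The passenger ssc-miR-148b-5p had 31.3, 34.98 and 33.8 normalized reads in LW and 337, 308 and 110 in MS replicates 1, 2 and 3. The LW values lay close together, with a coefficient of variation of 5.59%, whereas that of the MS values was 49.1%. With as few as 25 reads in LW, the narrow spread does not describe how alike the animals are. The log2 change of miR-148b-5p, 2.72 (SE 0.43, adjusted p = 0.00017, limma), was the largest estimate of the 6 members, while its guide was not called. The values rest on 25 to 43 recovered reads in LW and 65 to 469 in MS. It is listed with 24 bases, the longest of the family, and as differing from its miRBase entry.

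The passenger ssc-miR-152-5p had 45.1, 30.9 and 48.4 normalized reads in LW and 163, 135 and 76.1 in MS replicates 1, 2 and 3. The breeds did not overlap, and it was higher in MS, opposite to its guide, by 1.52 on the log2 scale (SE 0.39, adjusted p = 0.0044, limma). From 36 to 53 reads lay behind the LW values and from 45 to 227 behind the MS values. Of the 6 members 5 did not overlap between the breeds, as did 67.7% of all miRNAs tested.

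The balance of the arms was then compared as log2(5p/3p) within each library, again with limma, over 173 hairpins of which both arms passed the filter. Of these hairpins 64.2% were called, and 28.3% were called toward 5p in MS. MiR-148b and miR-152 were called toward 5p, and miR-148a was not called.

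For each 1000 reads of miR-152-3p there were 2.22, 2.19 and 2.06 reads of miR-152-5p in LW and 35.9, 30.0 and 14.6 in MS replicates 1, 2 and 3. The LW values lay close together, and every MS value was far above them. The LW ratios rest on 36 to 53 reads of miR-152-5p, so their closeness does not describe how alike the animals are. The log2 ratio differed by 3.52 (SE 0.43, adjusted p = 0.00028 from limma), which ranked 6 of the 173 hairpins toward 5p. A 5p arm called higher together with a 3p arm called lower was found in 8 of the 173 hairpins (4.62%), of which mir-152 was 1.

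For miR-148b there were 6.39, 6.59 and 5.75 passenger reads for each 1000 guide reads in LW and 61.4, 56.1 and 17.99 in MS replicates 1, 2 and 3. The log2 ratio differed by 2.63 (SE 0.51, adjusted p = 0.0023 from limma), rank 20 of the 173. MS replicate 3, the shallowest library, lay between the LW animals and the other 2 MS animals, and without it the difference was 3.20.

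For miR-148a there were 3.72, 4.04 and 4.80 passenger reads for each 1000 guide reads in LW and 6.23, 5.82 and 3.98 in MS replicates 1, 2 and 3. The breeds overlapped through MS replicate 3, and the log2 ratio differed by 0.32 (SE 0.38, adjusted p = 0.47 from limma), with a 95% interval from -0.55 to 1.19. In LW the 3 hairpins had 2.16 to 6.24 passenger reads for each 1000 guide reads on average, and in MS 5.34, 26.9 and 45.2 for miR-148a, miR-152 and miR-148b.

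**Figure D4:**
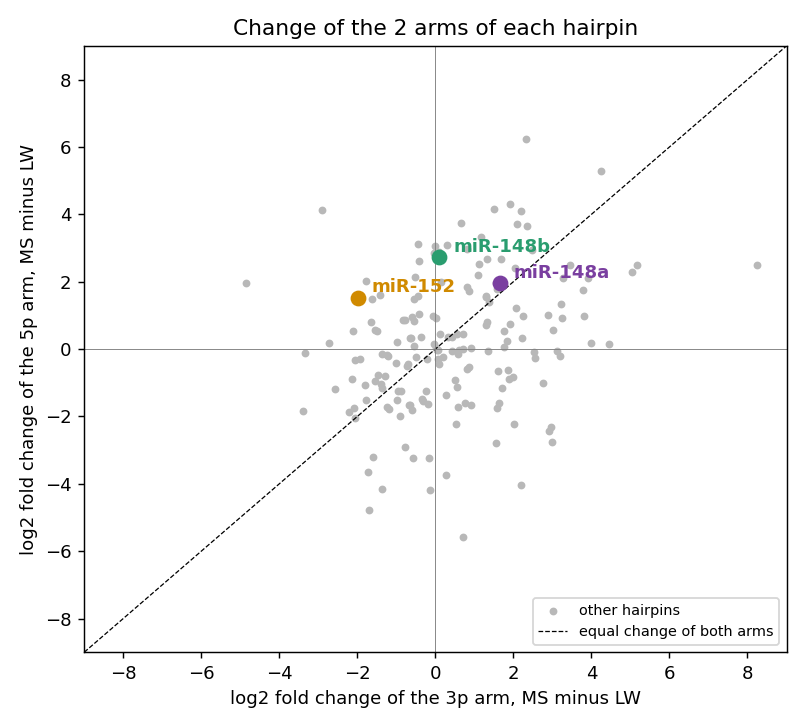
Log2 fold change (MS minus LW) of the 5p arm (y axis) against that of the 3p arm (x axis) for 173 hairpins, with equal change of both arms as a dashed line. The 5p arms of the 3 family hairpins are at similar heights, 1.52 to 2.72, while their 3p arms run from -1.99 to 1.64. MiR-148a lies near the dashed line.

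Fold changes in these libraries differed by the GC content of the mature miRNA, so values at like GC content were set beside the members. MiR-148a-3p and miR-148b-3p both have a GC content of 40.9%, and the 71 miRNAs tested within 2.5 percentage points of it had a median log2 fold change of 0.71, between the values of these guides. Both arms of miR-152 have 47.6% or 47.8%, where 121 miRNAs had a median of -0.27, and they moved in opposite directions. After a loess correction on GC content in each library, miR-148a-3p was at 0.70 (adjusted p = 0.018) and miR-152-3p at -1.81 (adjusted p = 0.00022, both from limma). MiR-148b-3p was then called lower, at -0.86 (adjusted p = 0.0046), and miR-148a was called toward 5p, at 1.13 (adjusted p = 0.025). The correction cannot move the ratio of miR-148a-3p to miR-148b-3p, which have the same GC content. The passengers remained called higher, at 1.83 for miR-148a-5p, 1.92 for miR-148b-5p and 1.73 for miR-152-5p. The part of GC content in the uncorrected values was not tested.

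**Figure D5:**
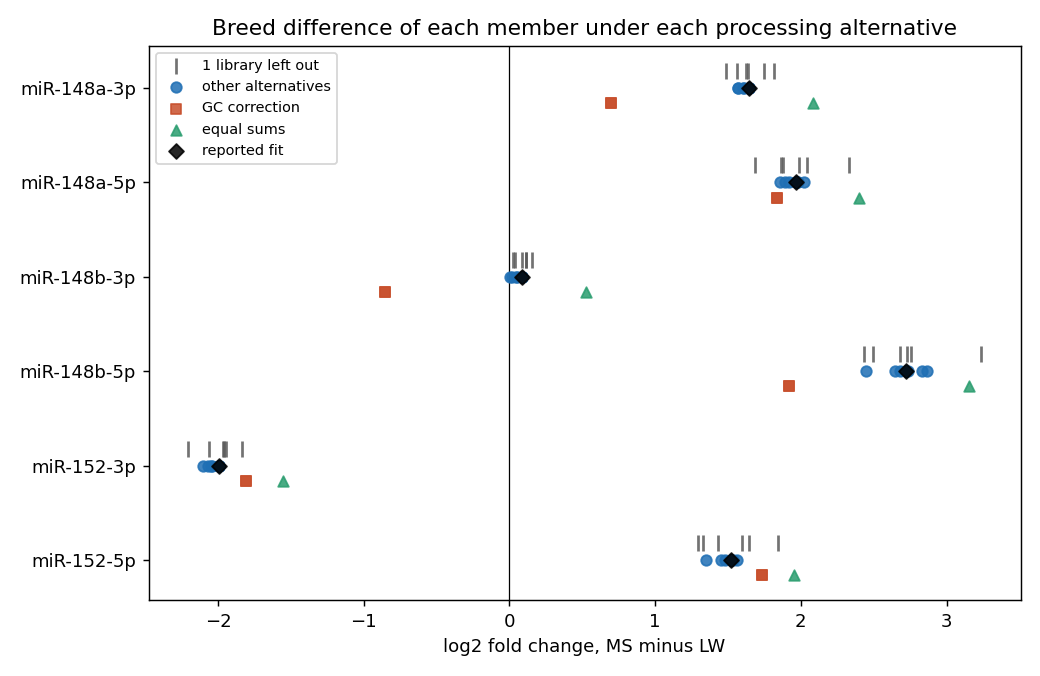
Log2 fold change (x axis, MS minus LW) of each member (y axis) in the reported fit (black diamond), without 1 library at a time (ticks), after GC correction (squares), with libraries scaled to equal sums (triangles) and under the other alternatives (circles). MiR-148b-3p is on both sides of 0, from -0.86 to 0.53, and no other member crosses 0.

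Scaling the libraries to equal sums moved the median of all miRNAs from 0.11 to 0.62. On that scale miR-148a-3p was at 2.08, miR-148b-3p at 0.53 (adjusted p = 0.056 from limma, not called) and miR-152-3p at -1.56, and the passengers were between 1.95 and 3.15. The directions of the 5 called members were thus the same under this scaling.

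Among the other myogenic miRNAs discussed with these samples, 4 of 9 were called higher and 3 lower in MS, with a median log2 fold change of 0.19. These were chosen on these samples, so their count is not independent evidence of a direction. MiR-133a-3p, listed as miR-133a-1-3p and known in mouse to promote myoblast proliferation, was at 1.92, close to miR-148a-3p, and miR-214-3p, at -1.64, was on the side of miR-152-3p. MiR-181a-5p was at -0.04 and, like miR-148b-3p, not called. The miR-29 guides, known in human cells to repress the de novo DNA methyltransferases, had 2 rows in the table. Both were called higher, at 2.93 and 3.16, from low levels of 31.8 and 2.85 normalized reads in LW. The row at 2.85 in LW averaged 34.2 in MS and passed the filter only through MS, so its call is no support for a rise of the list. Of all miRNAs tested, 34.1% were called higher, and 2 rows are too few to set a list apart.

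Among the 176 miRNAs, other than members, that averaged 1000 normalized reads or more in LW or in MS, miR-340-5p (row miR-340-2-5p) had the profile over the 6 libraries nearest to that of miR-148a-3p, with a root mean square difference of 0.167 log2 units after centring. MiR-381-3p (0.181) and miR-335-3p (0.202) followed. MiR-148b-3p was nearest to miR-181a-5p (0.175), miR-542-3p (0.182) and miR-26a-5p (0.189). MiR-152-3p was nearest to miR-363-3p (row miR-363-2-3p, 0.21), PC-92-5p (0.267) and miR-15b-5p (0.279). The table types PC-92-5p as a candidate miRNA, although the study's methods use the prefix PC for conserved ones.

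Markers of cell types were compared in the same fit, in which 34.1% of all miRNAs were called higher in MS and 28.1% lower. Shares near these, such as 1 of 2, are no result about a list. The 4 skeletal muscle miRNAs (miR-1, miR-133a, miR-133b and miR-206) were present in each library and all called higher in MS. Their summed levels were 17015 to 22039 normalized reads in LW and 61079 to 84301 in MS. Most of that sum was miR-133a-3p, on average 14008 in LW and 53202 in MS. MiR-206 had the smallest change of the 4 and was called close to the threshold. Of 7 names on the blood list 6 were matched by name, and 5 of these 6 rows were called higher. The rows summed to 3593 to 4639 normalized reads in LW and 7057 to 12060 in MS. Both arms of miR-142 and of miR-144 are among the called rows, so these are not all separate markers. The most abundant row of the list in both breeds, miR-486-5p (row miR-486-2-5p), was the one not called, at 0.34 on the log2 scale. Of the arms of miR-140, a cartilage miRNA, 1 of 2 was called lower, and their sum was 54414 to 71203 in LW and 4540 to 10576 in MS. That sum is nearly all miR-140-3p, at -3.34 on the log2 scale, while the scarcer miR-140-5p was at -0.12 and not called. Among the other marker rows tested, 1 of 2 for endothelium, 2 of 3 for neural cells and 1 of 3 for smooth muscle were called higher, and 2 of 3 for smooth muscle lower. Of 6 names on the epithelial list 1, miR-205-5p, was matched by name and called higher, which does not describe epithelium as a whole. Summed, these were at 5134 to 8860 and 10500 to 13989 normalized reads for endothelium in LW and MS, 364 to 1215 and 1745 to 4309 for neural cells, 120 to 242 and 406 to 1205 for miR-205-5p, and 13823 to 22276 and 23240 to 45443 for smooth muscle. The endothelium sum rose through miR-126-5p alone (log2 fold change 2.61), while miR-126-3p was at -0.43 and not called. The smooth muscle sum rose through miR-143-3p alone (0.91), while both arms of miR-145 were called lower. Neither sum therefore describes its list as a whole. No row of any marker list was at 0 in all libraries. Their part in the family's differences was not tested. The liver marker miR-122-5p reached 2860 normalized reads in LW replicate 3 and 46.8 to 237 in the other libraries. Without LW replicate 3 the log2 fold changes were 1.62 for miR-148a-3p, a guide also abundant in liver, 0.16 for miR-148b-3p and -1.84 for miR-152-3p.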

How the data were processed

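Small RNA was sequenced by the authors with a TruSeq small RNA kit on an Illumina HiSeq. With ACGT101-miR they removed adapters and other RNA classes, and with BLAST they mapped reads to miRBase and the pig genome. The deposited signal is the count of each miRNA's commonest sequence, which the authors scaled by mappable reads to a target not given in the sources used here. Columns of breed means were not used. Low values were multiples of 1 step per library, worth 0.720 to 1.69 normalized reads. Of values up to 20 reads, 93.3% to 95.7% were whole within 0.1 read (89.5% to 93.0% of all values above 0), and rounded reads were used for edgeR 4.0.16 and DESeq2 1.42.0 alone.

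Tests were made with limma 3.58.1 in R 4.3.3 (eBayes with trend, Benjamini-Hochberg adjustment over all miRNAs or hairpins tested) and tested on simulated data. Exact permutation tests used scipy 1.17.1 in Python 3.11.15 with numpy 2.4.6 and pandas 2.3.3, and figures used matplotlib 3.10.9. The loess span was 0.75. Named were all members, the 3 nearest profiles to each guide among miRNAs reaching 1000 normalized reads, and at most 3 miRNAs with values from each other list. Alternatives were pseudocounts of 0.5 and 10, other scalings (median of ratios, TMM, equal sums), other filters on low values, no trend, a replicate block, GC correction, edgeR, DESeq2 and leaving out each library. Members and lists were chosen with earlier results of these data known. Each animal is 1 library, and replicate numbers link no animals across breeds. RT-qPCR and histology were not analysed here.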

Additional observations from a re-analysis of the deposited data

How the results depend on the processing

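The 5 called members kept their direction and their call under every alternative that gave them a value (19 for the guides and 18 for the passengers, which a filter at 1000 normalized reads removed). MiR-148b-3p turned to -0.86 after GC correction, also with the replicate block, and was then called. The arm balance of miR-148a was called only after GC correction (1.13). The cause of these changes was not tested. With 1 library left out, log2 fold changes ranged from 1.49 to 1.81 for miR-148a-3p, 0.03 to 0.16 for miR-148b-3p, -2.20 to -1.84 for miR-152-3p, 1.68 to 2.33 for miR-148a-5p, 2.43 to 3.23 for miR-148b-5p and 1.30 to 1.84 for miR-152-5p, and the guide ratios kept their sign. Calls over all miRNAs numbered 341 in the reported fit, 300 to 373 with 1 library left out, 122 of 179 with a filter at 1000 normalized reads, 345 with edgeR and 347 with DESeq2. Called hairpins numbered 111 of 173, and 64 with each arm at 100 normalized reads or more, where fewer hairpins were tested. With equal sums, 67.2% of the calls were higher in MS, against 54.8%, and with the filter at 1000 it was 44.3%. The replicate block, which pairs only numbers (correlations of same-numbered deviations 0.005, -0.21 and 0.097), gave 332 calls and left each member's call as it was. The 5p arms rest on as few as 25 reads, so that their spread includes counting error, and depth is least in MS replicate 3.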
